A study of Homo sapiens with 6 samples.

Results

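The genes described here build or carry the sugar chains of the cell surface and matrix: 70 of the 7758 genes in a deposited RNA sequencing table. They were chosen by name, as protein-coding genes of the glypican, syndecan, perlecan and versican core proteins and of the enzyme families that start, lengthen, sulfate, branch, sialylate or fucosylate glycans. The cells were ARPE-19, a human retinal pigment epithelium (RPE) line, in which a lentivirus expressed either a hairpin RNA that targets METTL3 (sh-METTL3) or a scrambled one (sh-Control). Both were stable strains selected with puromycin. All cells of both groups had received lipopolysaccharide (LPS, a bacterial product that triggers inflammation) at 1 ug/ml for 24 h. Each group had 3 libraries. No unstimulated cells and no second hairpin enter the table. The labels do not say if replicates are separate cultures or separate infections, so p-values measure the spread between these libraries, which may be technical.

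A proteoglycan is a core protein with long sugar chains called glycosaminoglycans. Heparan sulfate chains on syndecans, glypicans and perlecan hold growth factors and chemokines, and the pattern of sulfate groups sets which ones bind. Mucin-type O-glycans start when a GALNT enzyme places N-acetylgalactosamine on serine or threonine, and N-glycans are trimmed, branched by MGAT enzymes and capped with galactose, sialic acid or fucose. The RPE rests on Bruch's membrane, which is rich in heparan sulfate, and its cell surface carries a glycan coat. METTL3 is the catalytic part of the complex that methylates adenosine in mRNA (N6-methyladenosine).

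The table is limited to genes past the authors' own comparison, which bounds each count below. The rule matched 149 protein-coding genes of GENCODE release 29, of which 70 (47.0%) were listed, beside 33.8% of all 19951 protein-coding genes. The unlisted ones were not analysed here, among them VCAN, HAS1, HAS2, HAS3, EXT1, EXT2 and SDC2. The listed values are read counts divided by 1 size factor per library, called scaled counts below. Between 10898434 and 17750052 reads per library fell on listed genes, the total depth is unknown, and the replicates of a group differed beyond sampling noise (chi-square per degree of freedom 3.89 to 17.6). The second principal component (3.36% of the variance) set sh-METTL3 replicate 3 apart, and this library was the farthest of its group from the other two for 29 of the 70 members and for 48.6% of all listed genes. Of 12 RPE markers, 6 were listed, and their summed scaled count ran from 18748 to 20001 in sh-Control and from 29908 to 33192 in sh-METTL3, most of it KRT8 and KRT18. KRT8, MITF and KRT18 were higher (log2 fold changes 1.05, 0.85 and 0.41), SERPINF1, PMEL and BEST1 were lower (-3.04, -1.80 and -1.73), and the median of the 6 was -0.66. RPE65, RLBP1, OTX2, TYR, TYRP1 and TTR were not listed. Of 9 mesenchymal markers, 7 were listed, with sums from 226162 to 254721 in sh-Control and from 185308 to 222914 in sh-METTL3. FN1 was the largest part of that sum. VIM was higher (0.96), as was TAGLN (0.64, adjusted p = 0.0443), whose groups overlapped and which passed in 6 of 15 alternative fits, and THY1, COL1A2, COL1A1, FN1 and PDGFRB were lower (-2.65, -2.26, -2.00, -0.75 and -0.63). The part of cell state or composition in the values below was not tested, and in bulk RNA fewer cells expressing a gene and less RNA per cell cannot be told apart.

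METTL3, the target of the hairpin (ENSG00000165819, chromosome 14 of GRCh38, 21498133 to 21511375), had scaled counts of 1154, 1108 and 1091 in sh-Control and of 966, 1001 and 765 in sh-METTL3. The groups did not overlap, and the log2 fold change was -0.30 ± 0.10 (SE), but it did not pass the test across all genes (limma, Benjamini-Hochberg adjusted p = 0.0817). The adjustment counted every gene of the annotation as a test, and over the listed genes alone the adjusted p was 0.0108. The mean in sh-METTL3 was 18.5% lower, the direction the labels give.

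Glycan genes moved in both directions. Of the 70 members, 35 were higher in sh-METTL3, 30 were lower and 5 did not pass (limma on log2 of the scaled count plus 1, adjusted p under 0.05). That is 92.9% called, beside 87.0% of all listed genes. Higher calls made up 35 of the 70 members beside 41.5% of all listed genes, and lower calls 42.9% beside 45.5%. With RLE size factors, which raise the median of all listed genes by 0.12 on the log2 scale, the split was 37 higher and 18 lower, and 67.3% of the called members were higher against 53.8% in the main fit. Without sh-Control replicate 2 it was 33 higher and 18 lower. The median log2 fold change of the members was 0.26, and that of all listed genes -0.21. Changes of at least 2-fold (log2 of 1) were called for 30 members, 19 of them higher and 11 lower, which is 42.9% beside 29.4% of all listed genes. The members are protein-coding by the rule, and all listed genes include other kinds. Over the 6740 listed protein-coding genes alone, 86.9% were called, 38.1% higher and 48.8% lower. Among these 24.6% had a called change of at least 2-fold, and their median was -0.25. No member of the 70 had overlapping groups, as for 98.5% of all listed genes. A lack of overlap given for a gene below therefore does not set it apart. The calls of 18 members were lost when at least 1 library was left out, 13 of them lower calls, and these are named with their role below.

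**Figure D1:**
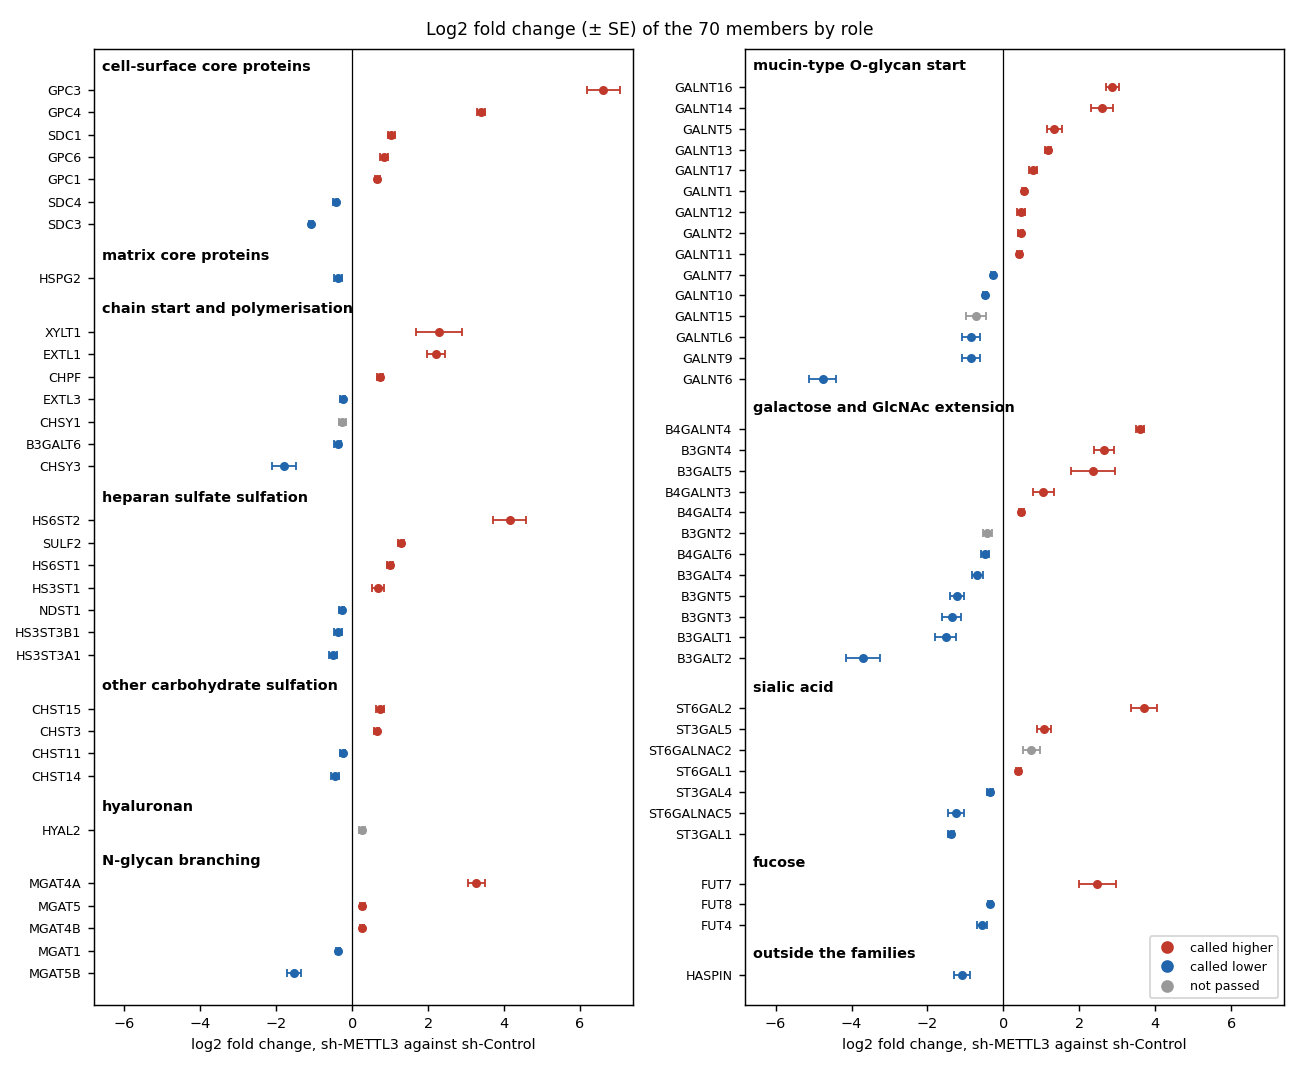
Log2 fold change of scaled counts, sh-METTL3 against sh-Control, with its standard error for the 70 members, grouped by role; red points were called higher, blue points lower and grey points did not pass. Each role with more than 1 listed gene had points on both sides of 0, from GALNT6 at -4.76 to GPC3 at 6.61.

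Of the 7 listed core proteins of the cell surface, 5 were higher and 2 lower. All 4 listed glypicans, which are tied to the membrane by a lipid anchor, were higher. GPC4 (chromosome X, 133300103 to 133415490, minus strand) had scaled counts of 132, 115 and 130 in sh-Control and of 1398, 1393 and 1210 in sh-METTL3. Every sh-METTL3 library was thus far above every control library, with a log2 fold change of 3.39 ± 0.10 (SE, adjusted p = 4.27e-08). GPC3, a glypican known as an oncofetal antigen and a regulator of Hedgehog signalling, was at 0, 1.92 and 0 in sh-Control and at 142, 130 and 143 in sh-METTL3. These were 2 reads against 381, a 234-fold difference with a 95% counting interval of 64.3 to 1938 (adjusted p = 5.19e-06). GPC1 rose from 3610 ± 318 to 5713 ± 373 and GPC6 from 415 ± 61.5 to 731 ± 16.9 (SD, n = 3), which are log2 fold changes of 0.66 and 0.83.

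The syndecans, which cross the membrane, split. SDC1, the syndecan typical of epithelia, had scaled counts of 692, 793 and 656 in sh-Control and of 1544, 1366 and 1460 in sh-METTL3 (log2 fold change 1.03 ± 0.08, adjusted p = 1.89e-05). SDC3 went the other way, from 4158, 4307 and 4235 to 1984, 1867 and 2093, a log2 fold change of -1.10 ± 0.06 (adjusted p = 1.03e-06). SDC4 fell from 5613 ± 163 to 4145 ± 253 (log2 fold change -0.44). The calls of SDC1 and SDC3 held in all 15 alternative fits.

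Perlecan (HSPG2), the large heparan sulfate proteoglycan of basement membranes, was the most abundant member by scaled count. It stood at 59666, 68633 and 59743 in sh-Control and at 50878, 52684 and 41086 in sh-METTL3, a log2 fold change of -0.38 ± 0.11 (adjusted p = 0.0441). The lowest control library was above the highest sh-METTL3 library. The call was lost without any 1 of the 6 libraries, with adjusted p from 0.0547 to 0.213, and 10.5% of its 50-base stretches are shared with another gene.

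Set against gene length, the summed level of the 7 surface core proteins was the same within its spread, at 3589 ± 143 scaled reads per kb in sh-Control and 3582 ± 149 in sh-METTL3 (SD, n = 3), while its make-up shifted. Among all 8 listed core proteins, HSPG2 made up 49.1% ± 1.04 of the level per kb in sh-Control and 42.5% ± 2.92 in sh-METTL3, and SDC4 30.5% ± 0.94 and 25.5% ± 1.83. GPC1 went from 7.85% ± 0.21 to 14.04% ± 0.26 and SDC3 from 8.51% ± 0.39 to 4.51% ± 0.56. SDC1 went from 2.81% ± 0.12 to 6.51% ± 0.58 and GPC4 from 0.36% ± 0.05 to 4.30% ± 0.06. In sh-Control SDC3 and GPC1 were close to each other in this order, and in sh-METTL3 GPC1 was well above SDC3. These shares leave out the unlisted core proteins, and no test was run on them.

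**Figure D2:**
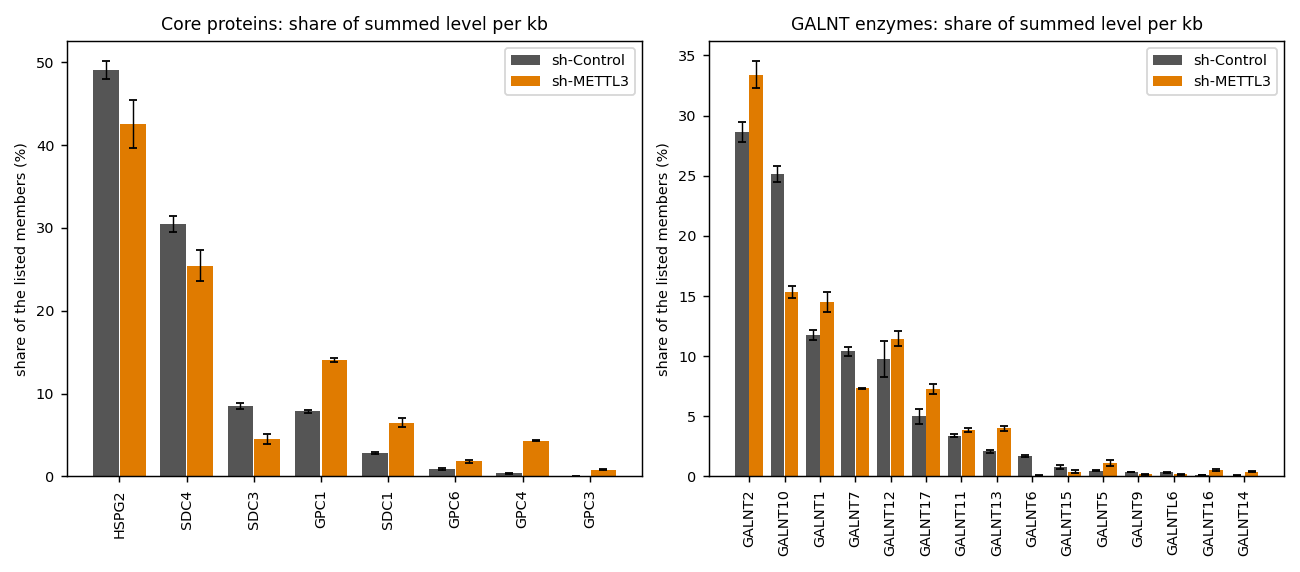
Share (%) of each gene in the summed level per kb of exon, for the listed core proteins (left) and the listed GALNT enzymes (right), mean with SD over 3 libraries per group (grey sh-Control, orange sh-METTL3). GPC1, SDC1 and GPC4 took larger shares in sh-METTL3 and SDC3 and SDC4 smaller ones, and GALNT10 fell from 25.1% to 15.4% of the GALNT level.

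GPC3 and GPC4 lie next to HS6ST2, and the 3 are the only members on chromosome X. HS6ST2, GPC4 and GPC3 were consecutive among listed genes and spanned 1360 kb, all on the minus strand and all higher. HS6ST2 (132626016 to 132961395), an enzyme that adds sulfate to the 6-position of heparan sulfate glucosamine, was at 0 in all 3 control libraries and at 18.7, 11.6 and 21.3 in sh-METTL3. Against a floor of 3 reads in each control library this is at least 6.38-fold higher (adjusted p = 0.000119). The listed genes on either side, named after their values were seen, did not share this size: RAP2C had a log2 fold change of 0.22 (adjusted p = 0.0647) and MBNL3 one of -1.17 on one side, and HPRT1 had -0.34 and RTL8C 0.83 on the other.

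Of the 7 listed enzymes that start or polymerise glycosaminoglycan chains, 3 were higher, 3 lower and 1 did not pass. CHPF, which with the CHSY enzymes makes the chondroitin chain, was the most abundant of them and rose from 7570, 9438 and 7978 to 13692, 14290 and 13378, with no overlap (log2 fold change 0.73 ± 0.08, adjusted p = 0.000142). Its partners did not rise with it. CHSY3, a low gene, fell from 28.0 ± 6.86 to 7.24 ± 1.46 (log2 fold change -1.80, adjusted p = 0.00336). CHSY1 was at 1482 ± 24.3 and 1245 ± 149 and did not pass (adjusted p = 0.0774). It did pass as lower without sh-METTL3 replicate 3 (adjusted p = 0.00124) and when adjusted over the listed genes alone (0.0102). CHPF held 78.5% ± 1.85 of the level per kb of this group in sh-Control and 88.0% ± 1.15 in sh-METTL3.

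Of the enzymes that act on heparan sulfate or on the linker it shares with chondroitin sulfate, EXTL1 and XYLT1 rose from low levels and EXTL3 and B3GALT6 fell by less. EXTL1, a relative of the heparan polymerases, rose from 15.2, 15.4 and 13.1 to 58.8, 67.0 and 89.6, a log2 fold change of 2.21 ± 0.24 (adjusted p = 0.000163). XYLT1, which places the first xylose on the core protein, was at 1.60, 3.84 and 0 in sh-Control and at 6.53, 10.3 and 15.7 in sh-METTL3 (log2 fold change 2.27 ± 0.60, adjusted p = 0.0349), which are few reads, and the value was 1.66 without sh-Control replicate 3. EXTL3, which adds the first N-acetylglucosamine of heparan sulfate, had 2058, 2255 and 1932 against 1665, 1800 and 1793 (log2 fold change -0.25, adjusted p = 0.0405). B3GALT6, which builds the linker that all these chains share, had 710, 649 and 665 against 458, 532 and 559 (log2 fold change -0.39, adjusted p = 0.0174). The calls of these last 3 depended on single libraries and on the fit. With RLE size factors EXTL3 had a log2 fold change of -0.12 (adjusted p = 0.753) and B3GALT6 one of -0.27 (0.138). XYLT1 did not pass with DESeq2. XYLT1 lost its call without any library but sh-Control replicate 2 (adjusted p 0.0532 to 0.107), EXTL3 without sh-Control replicate 1 or 2 or sh-METTL3 replicate 1 or 2 (0.0846 to 0.194), and B3GALT6 without any control library or sh-METTL3 replicate 1 (0.0546 to 0.0957).

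Of the 7 listed enzymes acting on heparan sulfate sulfation, 4 were higher and 3 lower. Both listed 6-O-sulfotransferases were higher. HS6ST1 had scaled counts of 376, 344 and 365 in sh-Control and of 659, 744 and 770 in sh-METTL3 (log2 fold change 1.00 ± 0.09, adjusted p = 3.39e-05), and HS6ST2 is described above. SULF2, a secreted enzyme that removes 6-O-sulfate outside the cell, rose too, from 840, 956 and 981 to 2317, 2419 and 2061 (log2 fold change 1.29 ± 0.08, adjusted p = 3.72e-06). In each of these 3 genes, as in every higher member, every sh-METTL3 library lay above every control library. Of the HS6ST1 50-base stretches, 15.1% are shared with its pseudogene HS6ST1P1, so its reads may be divided between them.

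The 3-O-sulfotransferases, which make the rarest sulfate mark, did not move as one. HS3ST1, the enzyme known for the antithrombin-binding form, rose from 124, 131 and 99.1 to 188, 178 and 199 (log2 fold change 0.68 ± 0.15, adjusted p = 0.0116). HS3ST3A1 fell from 1550, 1787 and 1485 to 1161, 1287 and 948 (log2 fold change -0.51 ± 0.11, adjusted p = 0.0108), and HS3ST3B1 from 573 ± 15.9 to 442 ± 62.1 (adjusted p = 0.0416). These 2 share sequence, with 20.4% of the HS3ST3A1 50-base stretches found in HS3ST3B1, so the division of reads between them is uncertain. HS3ST3A1 lost its call without sh-Control replicate 2 (adjusted p = 0.073), and HS3ST3B1 without any library but sh-METTL3 replicate 2 (0.075 to 0.17). NDST1, which makes N-sulfate first and so opens the way for the other enzymes, was the most abundant of the group and fell from 9582 ± 352 to 7886 ± 380 (log2 fold change -0.28, adjusted p = 0.0077). With RLE size factors its log2 fold change was -0.16 and it did not pass (adjusted p = 0.254).

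The 4 listed CHST sulfotransferases act on chondroitin or dermatan sulfate and split evenly. CHST3, a chondroitin 6-O-sulfotransferase, rose from 1410, 1601 and 1442 to 2239, 2338 and 2395 (log2 fold change 0.65 ± 0.06, adjusted p = 6.78e-05). CHST15, which adds a second sulfate to 4-sulfated units, rose from 520, 516 and 478 to 719, 839 and 962 (log2 fold change 0.73 ± 0.10, adjusted p = 0.000913). The 2 listed 4-O-sulfotransferases were lower. CHST11 had 1031, 1053 and 953 against 835, 887 and 831 (log2 fold change -0.25, adjusted p = 0.0354), and CHST14, the dermatan enzyme, 662, 821 and 754 against 504, 512 and 626 (log2 fold change -0.45, adjusted p = 0.0208). The groups did not overlap in any of the 4, as in every member. The rises held in all 15 alternative fits, but CHST11 lost its call without any library but sh-Control replicate 3 (adjusted p 0.0575 to 0.172) and CHST14 without sh-Control replicate 2 or 3 or sh-METTL3 replicate 1 or 2 (0.081 to 0.127). With RLE size factors CHST11 was at -0.13 (adjusted p = 0.644) and CHST14 at -0.32 (0.112). HYAL2, a hyaluronidase anchored to the cell surface and the sole listed member of the HAS and HYAL families, was at 561 ± 17.6 and 669 ± 38.7 and did not pass (adjusted p = 0.062).

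The GALNT family was the largest, with 15 of 20 annotated genes listed. Of these 9 were higher, 5 lower and 1 did not pass, with a median log2 fold change of 0.46. GALNT6 (chromosome 12, 51351247 to 51392867) had the lowest log2 fold change of any member on the scale used here, although B3GALT2, described below, fell further with a pseudocount of 0.1 (-5.31 against -4.89) and with DESeq2 (-4.80 against -4.72). It had scaled counts of 307, 287 and 298 in sh-Control and of 7.46, 6.44 and 20.2 in sh-METTL3, 26.2-fold lower on the means, with a log2 fold change of -4.76 ± 0.35 (adjusted p = 1.07e-05). The 3 control libraries were tightly grouped, and sh-METTL3 replicate 3 was the highest of the silenced libraries, without which the log2 fold change of GALNT6 was -5.23.

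Other members of the family came up from low levels. GALNT16 rose from 23.1, 23.1 and 21.5 to 191, 157 and 167 (log2 fold change 2.87 ± 0.18, adjusted p = 3.7e-06), and GALNT14 from 7.18, 5.76 and 10.3 to 55.0, 45.1 and 52.6 (2.60 ± 0.29, adjusted p = 0.000166). GALNT5 rose from 85.4, 70.1 and 88.8 to 176, 186 and 272 (1.34 ± 0.19, adjusted p = 0.00086). In all 3 the groups were apart, as in every member. GALNT13, known from neural tissue, rose from 327 ± 20.2 to 743 ± 28.8 (log2 fold change 1.18). GALNT1, GALNT2, GALNT11, GALNT12 and GALNT17 rose by 0.41 to 0.78 on the log2 scale.

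The abundant members moved less, and in opposite directions. Per kb of exon, GALNT2 and GALNT10 were the top of the family in sh-Control, with 28.6% ± 0.83 and 25.1% ± 0.69 of the summed level, and in sh-METTL3 they held 33.4% ± 1.11 and 15.4% ± 0.50. GALNT2 rose from 5342 ± 263 to 7336 ± 405 (log2 fold change 0.46, adjusted p = 0.000499), and GALNT10 fell from 6363 ± 158 to 4568 ± 123 (-0.48, adjusted p = 0.000102). The GALNT sum was 2411 ± 49.2 scaled reads per kb in sh-Control and 2836 ± 73.8 in sh-METTL3. The near-complete fall of GALNT6 took 1.68% ± 0.09 of that sum to 0.05% ± 0.03.

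The remaining falls in the family were small or uncertain. GALNT7, which acts on peptides that already carry a sugar, fell from 1720 ± 61.0 to 1426 ± 35.7 (log2 fold change -0.27) and did not pass with RLE size factors (-0.15, adjusted p = 0.24). GALNT9 and GALNTL6 were low and near the threshold, at log2 fold changes of -0.86 and -0.86 (adjusted p = 0.0451 and 0.0488). GALNT9 lost its call without any library but sh-METTL3 replicate 3 (adjusted p 0.107 to 0.167) and GALNTL6 without any but sh-METTL3 replicate 2 (0.0853 to 0.219). GALNT15 was at 98.1, 145 and 95.3 in sh-Control and at 50.4, 61.9 and 95.2 in sh-METTL3, and did not pass (adjusted p = 0.141), but did without sh-METTL3 replicate 3 (0.0148) and when adjusted over the listed genes alone (0.0187). GALNT12 lost its higher call without sh-METTL3 replicate 1 (0.0602), and 19.6% of its 50-base stretches are shared with an antisense gene.

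**Figure D3:**
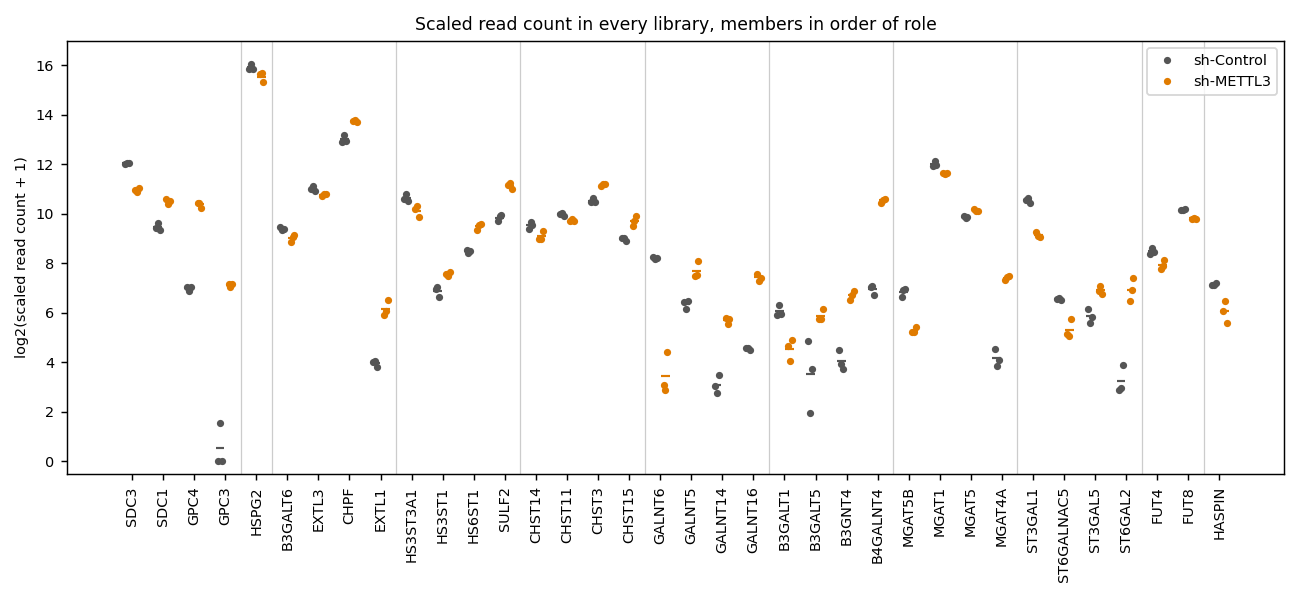
Scaled count on a log2 axis (plus 1) in each of the 3 sh-Control (grey) and 3 sh-METTL3 (orange) libraries for the members given with full values, with a bar at the mean of the plotted log2 values and a line between roles. That the groups stand apart was a condition for being shown. The largest differences between the mean bars are those of GPC3, GALNT6, ST6GAL2 and B4GALNT4.

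Genes that lengthen chains with galactose, N-acetylglucosamine or N-acetylgalactosamine were divided, with 5 of 12 higher, 6 lower and 1 not passed. B4GALNT4 (chromosome 11, 369796 to 382116), which makes the LacdiNAc unit, rose from 130, 134 and 105 to 1391, 1525 and 1567, a log2 fold change of 3.60 ± 0.11 (adjusted p = 5.26e-08). It took 7.20% ± 0.89 of the level per kb of this group in sh-Control and 53.2% ± 2.73 in sh-METTL3. Its relative B4GALNT3 had 19.4 ± 1.85 and 42.6 ± 13.8 (log2 fold change 1.05, adjusted p = 0.0376), a call lost without any library but sh-METTL3 replicate 3 (adjusted p 0.0743 to 0.177). The summed level of the group per kb was 453 ± 8.59 in sh-Control and 746 ± 12.7 in sh-METTL3.

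B3GNT4, an enzyme of poly-N-acetyllactosamine, rose from 21.5, 14.4 and 12.2 to 89.6, 104 and 118 (log2 fold change 2.65 ± 0.25, adjusted p = 6.37e-05), and 17.9% of its 50-base stretches are shared with DIABLO, which overlaps it on the other strand. B3GNT3 and B3GNT5 of the same family fell, from 121 ± 17.7 to 47.6 ± 14.1 and from 139 ± 19.6 to 58.5 ± 8.57 (log2 fold changes -1.36 and -1.23). B3GNT2 was at 394 ± 11.2 and 297 ± 51.6 and did not pass (adjusted p = 0.068), but did without sh-METTL3 replicate 1 (0.0335), with DESeq2 (0.0425) and when adjusted over the listed genes alone (0.00898). One B3GNT gene was therefore higher and 2 were lower.

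The B3GALT enzymes, which add galactose in a beta-1,3 bond, split as well. B3GALT1 fell from 59.0, 78.8 and 60.8 to 24.3, 15.5 and 29.1 (log2 fold change -1.52 ± 0.27, adjusted p = 0.00377). B3GALT2 fell from 67 reads to 2 over the 3 libraries, 27.3-fold lower with a 95% counting interval of 7.27 to 230 (adjusted p = 0.000318). B3GALT5, which makes type 1 chains, went from 27.9, 2.88 and 12.2 to 52.2, 52.8 and 69.4, and its control libraries were far apart (log2 fold change 2.36 ± 0.59, adjusted p = 0.0242). The value was 3.04 without sh-Control replicate 1 and 1.59 without sh-Control replicate 2. Its call was lost without sh-Control replicate 3 or any 1 sh-METTL3 library (0.0536 to 0.0801). B3GALT4 had a log2 fold change of -0.69 (lost without sh-Control replicate 2, 0.0529), B4GALT6 one of -0.48 (lost without sh-Control replicate 1, 0.0772) and B4GALT4 one of 0.48.

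N-glycan branching held one large rise and one large fall among low genes and small changes among the abundant ones. MGAT4A, which starts a branch on the alpha-1,3 arm, rose from 22.3, 13.5 and 15.9 to 160, 175 and 178 (log2 fold change 3.27 ± 0.22, adjusted p = 6.75e-06). MGAT4B, which does the same step, was at 8863 ± 300.3 and 10562 ± 113 (log2 fold change 0.25, adjusted p = 0.00737) and held 76.9% ± 0.50 and 81.7% ± 0.25 of the level per kb of the listed MGAT genes. The rise of MGAT4A took it to 0.75% ± 0.05 of that sum. Large fold changes in this family thus fell on genes that were a small part of it.

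MGAT5B fell from 97.3, 119 and 122 to 36.4, 36.1 and 41.4 (log2 fold change -1.54 ± 0.18, adjusted p = 0.000261), while MGAT5, which makes the beta-1,6 branch, rose from 956, 913 and 935 to 1158, 1113 and 1098 (0.27 ± 0.06, adjusted p = 0.0136). MGAT5 lost its call without sh-Control replicate 2 or sh-METTL3 replicate 1 (0.0676 and 0.061). MGAT1, which opens the path to all complex N-glycans, fell from 3894, 4490 and 4024 to 3225, 3151 and 3183 (-0.37 ± 0.06, adjusted p = 0.00202). None of these groups overlapped, as in every member.

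Among the 7 sialyltransferases 3 were higher, 3 lower and 1 did not pass. ST6GAL2 rose from 6.38, 6.73 and 14.02 to 88.6, 121 and 168, a log2 fold change of 3.69 ± 0.34 (adjusted p = 4.85e-05), and its relative ST6GAL1, the main alpha-2,6 enzyme of many tissues, from 820 ± 33.8 to 1077 ± 31.0 (0.39, adjusted p = 0.00201). ST3GAL5, which makes the ganglioside GM3, rose from 69.4, 47.1 and 56.1 to 118, 135 and 107 (1.06 ± 0.19, adjusted p = 0.00407). Both listed alpha-2,6 enzymes for N-glycans were higher, though ST6GAL2 stayed well below ST6GAL1 per kb of exon, at 16.3 beside 118 in sh-METTL3.

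On the other side, ST3GAL1, which caps the core 1 O-glycan, fell from 1516, 1593 and 1386 to 619, 557 and 537 (log2 fold change -1.39 ± 0.08, adjusted p = 2.11e-06). ST6GALNAC5, an enzyme of gangliosides, fell from 94.1, 96.1 and 90.7 to 34.5, 32.2 and 52.6 (-1.25 ± 0.22, adjusted p = 0.00344). The groups were apart in both, as in every member. ST3GAL4 had a log2 fold change of -0.35, with a call lost without sh-Control replicate 2 or 3 or sh-METTL3 replicate 2 (0.0546 to 0.103). ST6GALNAC2 was at 35.0 ± 3.28 and 59.6 ± 12.9 and did not pass (adjusted p = 0.0672), and 48.9% of its 50-base stretches are shared with an overlapping gene. The summed level of the 7 was 776 scaled reads per kb in sh-Control and 612 in sh-METTL3.

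Of 3 fucosyltransferases, FUT8, which adds core fucose to N-glycans, fell from 1155, 1127 and 1167 to 885, 919 and 896 (log2 fold change -0.35 ± 0.06, adjusted p = 0.00219). FUT4 fell from 333, 398 and 351 to 216, 240 and 277 (-0.56 ± 0.12, adjusted p = 0.0114), a call lost without sh-Control replicate 2 or sh-METTL3 replicate 1 (0.0754 and 0.0502). Of the FUT4 50-base stretches 12.2% are shared, mostly with PIWIL4, which overlaps it on the same strand. For FUT8 it is 13.4%, mostly with FUT8-AS1 on the other strand. FUT7, which completes sialyl Lewis x, rested on 2 reads in sh-Control and 21 in sh-METTL3, a 12.9-fold difference with a 95% counting interval of 3.15 to 113 (adjusted p = 0.0064). It did not pass with DESeq2 (adjusted p = 0.0623). Of the FUT7 50-base stretches 57.9% are shared with C9orf139, which lies across it on the other strand, so its reads cannot be assigned with certainty. HASPIN, a histone kinase, was taken by the rule only through the letters HAS. It had 139, 138 and 146 against 67.2, 88.9 and 47.0 (log2 fold change -1.09 ± 0.22, adjusted p = 0.00766).

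**Figure D4:**
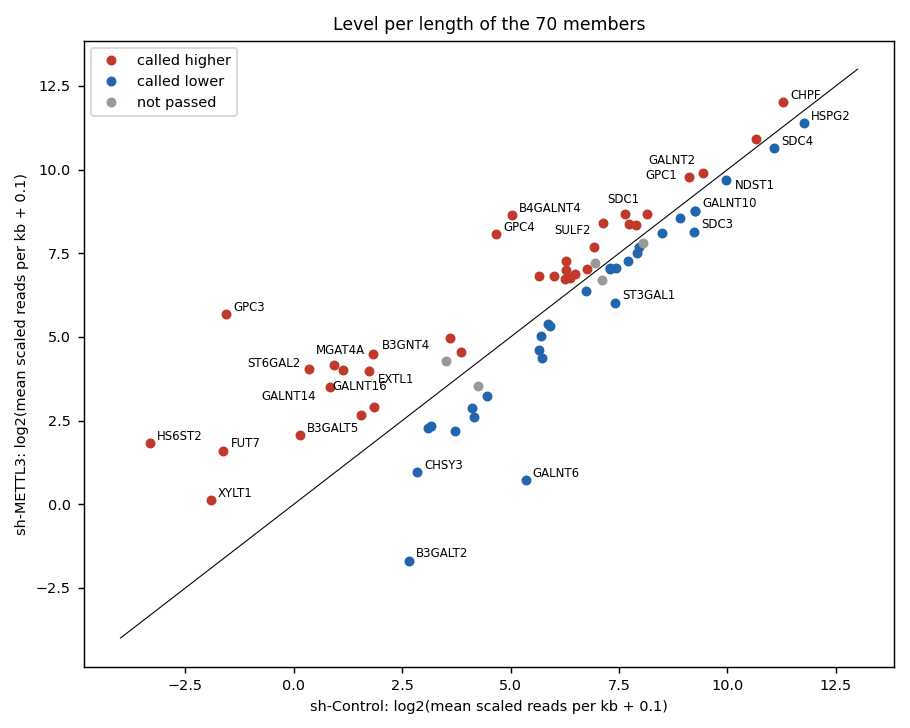
Mean scaled reads per kb of exon (log2 axes, plus 0.1) of the 70 members in sh-Control against sh-METTL3, red called higher, blue called lower, grey not passed, with a line of equal level. Members at high level, such as CHPF, HSPG2, SDC4 and NDST1, lie near the line, GPC3 and HS6ST2 lie farthest above it and GALNT6 and B3GALT2 farthest below.

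The lower members CHST14 on chromosome 15 and FUT4 and ST3GAL4 on chromosome 11 stood in stretches where most listed genes had lower values. Of the 20 nearest listed genes around CHST14, 20 had a log2 fold change below 0, and 19 of 20 did around FUT4 and around ST3GAL4, beside 52.3% of all listed genes. Around B4GALNT4, near the short-arm end of chromosome 11, it was 10 of 16, and around CHSY1 on chromosome 15 it was 5 of 15. Around SULF2, a gene that rose, 18 of 20 had values below 0. These neighbourhoods were looked at after the values were seen, and their part in the result was not tested.

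Other genes of glycan metabolism came from a list of 83 names, of which 31 were listed. Of these 15 were higher, 11 lower and 5 did not pass, with a median log2 fold change of 0.20. That is 83.9% called, 48.4% higher and 35.5% lower, beside the 87.0%, 41.5% and 45.5% of all listed genes. The proteoglycans outside the rule held the largest falls. CSPG4, a chondroitin sulfate proteoglycan of the cell surface, fell from 2641, 2906 and 2614 to 285, 264 and 390 (log2 fold change -3.14, adjusted p = 2.78e-07), and SRGN, an intracellular proteoglycan of secretory granules, from 62.2, 75.9 and 77.6 to 8.40, 0 and 4.48 (-4.29, adjusted p = 0.00171). TGFBR3 (betaglycan) had a log2 fold change of 0.70 and PRELP, a matrix proteoglycan at low level, one of 1.48.

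In the supply of precursors, PAPSS2, which makes the sulfate donor for all sulfotransferases above, rose from 4391, 4537 and 4710 to 8314, 8690 and 6676 (log2 fold change 0.79, adjusted p = 0.000191), and PAPSS1 by 0.20 (adjusted p = 0.0498). PGM3, GNPNAT1 and GFPT1, which feed UDP-N-acetylglucosamine, fell by 0.70, 0.36 and 0.29 on the log2 scale. Among lysosomal enzymes that take glycosaminoglycans apart, IDS (1.01) and IDUA (0.28) were higher and SGSH (-0.91) was lower, while NAGLU and GALNS did not pass (adjusted p = 0.111 and 0.0543). Of the hyaluronan genes CEMIP fell from 815 ± 250.2 to 124 ± 49.5 (-2.74), CEMIP2 rose (0.96), and CD44, the hyaluronan receptor, fell (-0.29). GCNT1, which turns core 1 into core 2 O-glycans, rose from 76.7 ± 11.7 to 187 ± 20.9 (1.28). NEU3, SLC26A2 and SLC35C1 were the others that did not pass (adjusted p = 0.0575, 0.0512 and 0.0506). Some calls near the threshold were lost in alternative fits, with PAPSS1 passing in 5, PRELP in 6, CD44 in 8 and IDUA in 11 of them.

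The study followed NR2F1, a nuclear receptor known to bind sites built from AGGTCA, so the promoters of the members were searched for these letters on both strands (TGACCT on the other strand). NR2F1 itself was at 3081, 3333 and 3551 in sh-Control and at 4739, 5094 and 6019 in sh-METTL3 (log2 fold change 0.66, adjusted p = 0.00052). RefSeq promoter windows of 300 bases (250 before and 50 after the start, GRCh38.p14) were found for 58 of the 70 members. Of these 58 genes 8 (13.8%) held the letters in at least 1 window, beside 16.5% of all 27305 genes with a window. Counted as windows it was 10 of the members' 90 (11.1%), beside 13.8% of all 35116. It was 6 of 30 members called higher and 1 of 24 called lower, beside 14.6% of all listed genes called higher and 14.1% of those called lower, and no difference was tested. The 6 higher members were HS6ST2, B3GALT5, GALNT13, GALNT11, MGAT5 and MGAT4B. MGAT1 was the lower one, and GALNT15, which did not pass, made up the 8. GALNT13 and MGAT1 each had a match at 2 starts. Matches are shown for HS6ST2 and B3GALT5, the higher members with the largest log2 fold changes among the 6, and for MGAT1, the lower one. Each is given as 30 bases on the gene's strand with the match in capitals, and is a description, not a site.
HS6ST2, chrX:132961369-132961398, minus strand: tgcaagccaggcTGACCTttatgctcccag
B3GALT5, chr21:39642235-39642264, plus strand: tgaagaaagcaaAGGTCAgcttcagagatg
MGAT1, chr5:180815584-180815613, minus strand: agggtattggccAGGTCAaaggagagggtg
MGAT1, chr5:180810633-180810662, minus strand: ttttgagaaaccAGGTCAagcaggccgtcg
The HS6ST2 window lies at the gene that was at 0 in every control library. The windows of GPC4, B4GALNT4, ST6GAL2 and GALNT16 did not hold these letters, and GPC3 and MGAT4A were not among the 58 genes with a window.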

How the data were processed

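RNA was extracted with Trizol and libraries were made with the Illumina TruSeq kit. The submitters' processing notes name HISAT2 2.0.5 and hg38, while the methods name Cufflinks, whose form the table does not have. The read counter and strandedness are not given in the sources used here. The authors deposited a signal per library that is the gene's read count divided by 1 size factor, and 100% of the values came out as whole reads (tolerance 0.01). Their group means, fold changes and p-values, which had selected the 7758 listed genes, were not used. The symbols of 13 rows, turned into dates, were replaced from GENCODE release 29, which matched all gene IDs, positions and exonic lengths.

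All 7758 genes were fitted with limma 3.58.1 in R 4.3.3 (intensity trend, no covariates) on log2 of the value plus a pseudocount of 1, which understates changes of low genes. P-values were two-sided and Benjamini-Hochberg adjusted over the 58735 genes of the annotation, each unlisted gene entering with a p-value of 1, at a threshold of 0.05. The members and lists were chosen with earlier results of these data known. By a written rule, the members given with the value in every library were HSPG2 and, per role, up to 4 called members with the largest change, provided that a group mean reached 50 and the groups did not overlap. The rule further named METTL3 and the members that did not pass. XYLT1, HS6ST2 and other genes with values, the per-library values of GALNT15, the chromosomal neighbours and the promoter letters were chosen after values were seen. Levels between genes were compared per kb of exon. Counting intervals and floors (3 reads per library) cover counting error only. Shared sequence was measured as 50-base stretches of the exons found in other genes. Besides the members given above with such shares, it was 14.3% for B3GNT5, 13.9% for HASPIN, 12.2% for GALNT2 and 10.3% for HS3ST3B1. Alternatives were edgeR 4.0.16 with TMM, RLE or the deposited factors and DESeq2 1.42.0, on recovered reads, besides other limma settings and leaving out each library. The fits were tested on simulated data. Some single results are not reported here.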

Additional observations from a re-analysis of the deposited data

How the results depend on the processing

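Of the 65 called members, 44 passed in each alternative fit that held them, 14 or 15 fits (29 higher, 15 lower), 21 lost the call in at least 1, and no member changed sign. The higher members numbered 35 and became 19 with a log2 limit of 1. The lower members numbered 30 and became 18 with RLE size factors, 19 without the intensity trend, 17 at a threshold of 0.01 and 11 with the log2 limit. Those lost with RLE size factors were B3GALT6, B4GALT6, CHST11, CHST14, EXTL3, GALNT7, GALNT9, GALNTL6, HS3ST3B1, HSPG2, NDST1 and ST3GAL4. Leaving out 1 library gave 30 to 33 higher and 18 to 28 lower members. Of the other glycan genes, 15 were higher, 9 at a threshold of 0.01 and 3 with the log2 limit, and 9 to 15 with 1 library left out, the lowest without sh-Control replicate 2. The 11 lower ones became 3 with the log2 limit and 8 to 13 with 1 library left out. METTL3 stayed lower in each fit, by -0.38 to -0.18 with 1 library left out, and passed in 3: DESeq2 (-0.30, adjusted p = 0.0463), adjustment over the listed genes alone (-0.30, 0.0108) and the replicate block (-0.30, 0.0456). Same-numbered libraries did not deviate together (correlations 0.004, 0.019 and -0.015), so the numbers were not taken as pairs. With the replicate block 34 members were higher and 28 lower, and 6335 genes were called in all. Medians of roles moved in 19 of 135 cases without a change of sign. A fit with a library left out has fewer samples, and the cause of the other changes was not tested. The preselection means that these counts describe listed genes, and a gene with few reads, such as XYLT1, FUT7, B3GALT2 or HS6ST2, has a fold change that depends on the pseudocount.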
